A study of Mus musculus with 12 samples.

Results

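Chemokines and chemokine receptors were followed in mouse skin in which imiquimod (IMQ), which activates Toll-like receptors, had induced a psoriasis-like inflammation, with and without the gene Tcn2, which encodes the vitamin B12 carrier transcobalamin. The genes were taken by symbol: every Ccl, Cxcl, Ccr, Cxcr or Ackr symbol followed by a number, together with Cx3cl1, Cx3cr1, Xcl1, Xcr1 and Ccrl2, and at least 10 counts over the 12 libraries. Such a name was borne by 61 of 33539 genes listed and 58 reached the count minimum. Just inside it lay Cxcr5 with 25 counts, Ccr1l1 with 35 and Cxcr1 with 56, and just outside it Cxcl17 with 9, Ccl19-ps1 with 2 and Ccl21d with 0. A filter on low counts left 53 of the 58 in the tests, among 18147 genes tested in all. Ccl17, Ccl27b, Ccr1l1, Cxcr1 and Cxcr5 did not pass it and are given as values only.

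Chemokines are small secreted proteins that draw leukocytes along a gradient by binding receptors coupled to inhibitory G proteins. CXC ligands with an ELR motif recruit neutrophils through Cxcr2, the interferon-induced CXC ligands recruit T cells through Cxcr3, and the CC ligands act mainly on monocytes, eosinophils, dendritic cells and lymphocytes. Atypical receptors bind chemokines without signalling through G proteins and clear them from the tissue. In psoriasis, keratinocytes are a known source of the neutrophil-attracting ligands and of Ccl20, the ligand of Ccr6 on cells that make interleukin 17.

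The libraries fall into 3 groups by their titles: 4 of Tcn2-deficient skin after IMQ (Tcn2-/- IMQ), 5 from IMQ-induced skin (IMQ) and 3 from wild-type skin without IMQ (control). The series' design text describes the IMQ animals as wild type for Tcn2 and sets the Tcn2-deficient skin against theirs. Strain, sex, age, the dose and duration of IMQ and the cells or stage in which Tcn2 was lost are not stated in the labels, and the titles carry the word muscle although tissue and source are labelled skin. The labels do not say whether replicates are separate animals, so p-values here reflect spread among libraries that may be technical.

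The libraries held 16182324 to 18503487 counts each. Tcn2 itself stood at 5.59, 1.91, 5.44 and 4.14 CPM (counts scaled to the size of the library with TMM factors) in the Tcn2-/- IMQ libraries, at 67.0 to 141 CPM in the IMQ libraries and at 19.9 to 85.9 CPM in the controls. All 4 libraries labelled Tcn2-/- lay below every other library. Some libraries stand apart from their groups. Control replicate 1 and Tcn2-/- IMQ replicate 2 had the highest mitochondrial shares (10.3% and 8.08%, others 2.78% to 6.06%), and these with Tcn2-/- IMQ replicate 1 lay lowest on the first principal component of all genes. Control replicates 2 and 3 and IMQ replicate 1 held 18572 to 26187 counts of Xist, and the other libraries held Y-linked counts, so sex was unequal between the groups. Control replicate 1 was the only control with Y-linked counts, so among the controls sex and that library cannot be told apart. The 17 epidermal markers had counts in every library, which shows skin RNA in each but not what share of the tissue was skin. They summed to 15520 to 72150 CPM in Tcn2-/- IMQ skin, 30670 to 50720 CPM in IMQ skin and 9952 to 10930 CPM in control skin. The 29 muscle genes summed to 11950 to 45010 CPM in Tcn2-/- IMQ skin, 4150 to 10110 CPM in IMQ skin and 16790 to 17390 CPM in control skin. In every control and in Tcn2-/- IMQ replicates 1 and 2 the muscle sum was larger than the epidermal sum. With a muscle score as a covariate the called members numbered 0 between Tcn2-/- IMQ and IMQ skin, 0 between IMQ and control skin and 4 between Tcn2-/- IMQ and control skin, and with sex as a covariate 0, 2 and 0 in the same order.

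The 58 genes together took 700.3, 471, 2872 and 2638 CPM in Tcn2-/- IMQ skin, 1317 to 2472 CPM in IMQ skin, and 545, 1784 and 2181 CPM in control skin. The lowest sums belonged to Tcn2-/- IMQ replicates 1 and 2 and control replicate 1, the same libraries that lay lowest on the first principal component. Per kilobase of exon, Ccl8, a ligand that attracts monocytes and lymphocytes, was the most abundant member in each group, at a mean of 479 CPM per kb in Tcn2-/- IMQ skin, 554 in IMQ skin and 356 in control skin. Ccl6 came next in Tcn2-/- IMQ and IMQ skin (195 and 135 CPM per kb), while in control skin it was Ccl20 (128 CPM per kb).

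No member passed the test between Tcn2-/- IMQ and IMQ skin, while most of the measured values were lower in Tcn2-/- IMQ skin. With edgeR's quasi-likelihood test and Benjamini-Hochberg adjustment at 0.05, 0 of 53 members were called, where 5 of all 18147 genes were (0.0276%, with 0.00551% higher and 0.022% lower). At an unadjusted p below 0.05 there were 22 members, 20 of them lower and Ackr4 and Ccl27a higher, against 11.8% of all genes (6.16% lower and 5.67% higher). DESeq2 called 15 of the 53 members and 600 of all genes, and voom called 2 members and 28 of all genes. Without control replicate 1 the count was 3, with Ccr2 and Cxcr6 among them, against 95 of all genes. The log2 change was below 0 in 42 of 53 members, against 49.2% of all genes, and its median was −0.74 over the members and 0.01 over all genes. The 4 Tcn2-/- IMQ libraries lay below all 5 IMQ libraries for 15 members (3.18% of all genes) and above them for 0 (1.71% of all genes). Among these were the ligands Cxcl2, Cxcl3, Cxcl9, Cxcl10, Ccl3, Ccl4 and Ccl5 and the receptors Ccr1, Ccr2, Ccr7 and Cxcr6. All 16 tested receptors that signal had a log2 change below 0, 5 of 5 of neutrophils and monocytes and 11 of 11 of lymphocytes, dendritic cells and eosinophils. In whole skin, fewer cells of a type and less RNA per cell cannot be told apart.

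IMQ skin differed from control skin in Cxcr2, which rose, and in Ackr4, which fell: 2 of 53 members were called, against 1.23% of all genes (0.694% higher and 0.535% lower). At an unadjusted p below 0.05 there were 16 members (15.6% of all genes), 6 of them higher (7.48% of all genes) and 10 lower (8.11%). The log2 change was below 0 in 27 of 53 members (50.4% of all genes), and the median log2 change was −0.03 over the members and 0.00 over all genes. The IMQ libraries lay above all controls for Ccr1, Ccr9, Cxcl2, Cxcl3, Cxcl5, Cxcr2 and Ccl3, 7 members (6.79% of all genes), and below all controls for Cxcl11, Ackr4, Ccl27a, Ccl1 and Ccl20, 5 members (7.4% of all genes).

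Tcn2-/- IMQ skin had 6 members called against control skin, all lower: Ccr2, Ccl1, Cxcl9, Ccr7, Cxcl10 and Xcr1. Called genes were 1.31% of all tested and 0.733% in this direction. At an unadjusted p below 0.05 there were 24 members (12.8% of all genes), 22 of them lower (6.78%) and Cxcl5 and Cxcr2 higher (5.98%). The log2 change was below 0 in 36 of 53 members (49% of all genes) with a median of −0.71, against 0.01 over all genes. The Tcn2-/- IMQ libraries lay below all controls for 15 members (5.9% of all genes) and above them for Cxcr2 alone (4.67%). All 6 calls were lost when control replicate 2, control replicate 3, Tcn2-/- IMQ replicate 3 or Tcn2-/- IMQ replicate 4 was left out, which gave 0 called members each time. Of all genes 238 were called with every library, and 16, 3, 27 and 31 under these 4 exclusions in the same order. Without control replicate 1 there were 11 called members and 428 called genes. Each group enters 2 of the 3 comparisons, which therefore share libraries.

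**Figure D1:**
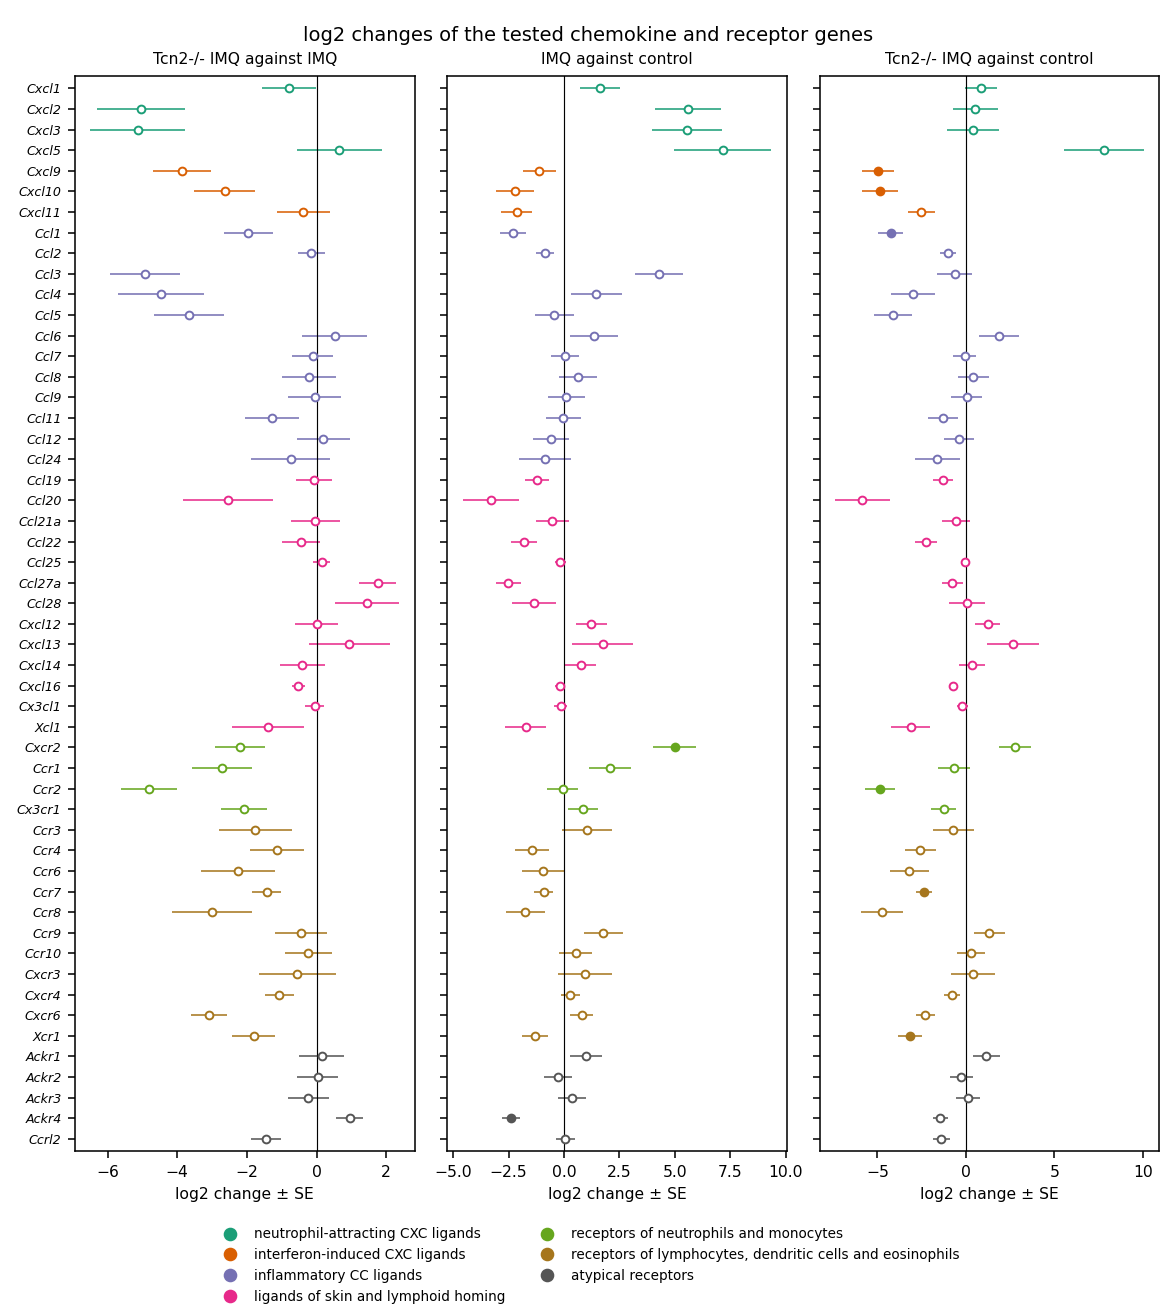
Log2 change with its standard error for 52 of the 53 tested members in Tcn2-/- IMQ against IMQ skin (left), IMQ against control skin (middle) and Tcn2-/- IMQ against control skin (right), coloured by role; filled points have an adjusted p below 0.05 (0, 2 and 6 members). In the left panel 41 of the 52 points lie below 0.

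Among the neutrophil-attracting ligands, Cxcl2 and Cxcl3 were high in IMQ skin and near the control level in Tcn2-/- IMQ skin, while Cxcl5 was above the controls in 3 of 4 Tcn2-/- IMQ and 5 of 5 IMQ libraries. Cxcl2, a ligand of Cxcr2, measured 3.33, 0, 2.84 and 1.81 CPM in Tcn2-/- IMQ skin, 232, 34.2, 5.09, 24.4 and 30.9 CPM in IMQ skin and 0.66, 0.562 and 2.896 CPM in control skin. Cxcl3, its near relative, measured 0.535, 0, 0.742 and 0.817 CPM in Tcn2-/- IMQ skin, 76.9, 7.93, 1.03, 3.21 and 3.96 CPM in IMQ skin and 0.55, 0.225 and 0.398 CPM in control skin. For each of these ligands the IMQ libraries overlapped neither other group. IMQ replicate 1, the only IMQ library with high Xist counts, was far above the rest. The log2 change between Tcn2-/- IMQ and IMQ skin was −5.03 ± 1.27 (SE) for Cxcl2 (adjusted p = 0.161), and −5.13 ± 1.36 for Cxcl3 (adjusted p = 0.170). In IMQ against control skin it was 5.57 ± 1.49 (adjusted p = 0.0993) and 5.55 ± 1.58 (adjusted p = 0.119). Neither gene was called, and DESeq2 called both between Tcn2-/- IMQ and IMQ skin. Without IMQ replicate 1 the log2 change of Cxcl3 was −2.92 between Tcn2-/- IMQ and IMQ skin and 3.33 in IMQ over control skin, neither called.

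Cxcl1, the keratinocyte-derived member of this family, measured 2.62, 0.596, 4.33 and 10.5 CPM in Tcn2-/- IMQ skin, 22.3, 5.99, 5.51, 2.002 and 3.12 CPM in IMQ skin and 1.76, 2.58 and 3.12 CPM in control skin, with all groups overlapping. Its log2 change was −0.79 between Tcn2-/- IMQ and IMQ skin and turned to 0.13 without IMQ replicate 1. Cxcl5 measured 1.54, 0, 9.397 and 29.2 CPM in Tcn2-/- IMQ skin, 10.3, 1.997, 6.79, 0.243 and 12.4 CPM in IMQ skin and 0, 0 and 0.114 CPM in control skin. Tcn2-/- IMQ replicate 2 had no count, so its group overlapped the controls, whereas the IMQ libraries all lay above them. With 2 counts in the controls the ratio to control skin was 271 for Tcn2-/- IMQ skin (exact 95% counting interval 74.9 to 2246) and 171 for IMQ skin (47.0 to 1413). The intervals cover counting error only, and 500 of the 678 counts in Tcn2-/- IMQ skin came from replicate 4. In the edgeR fit the log2 change was 7.81 for Tcn2-/- IMQ against control skin (adjusted p = 0.125) and 7.15 for IMQ against control skin (adjusted p = 0.145), and neither was called. The value for Tcn2-/- IMQ against control skin was 6.35 without Tcn2-/- IMQ replicate 4. Without Tcn2-/- IMQ replicate 4 the log2 change of Cxcl5 between Tcn2-/- IMQ and IMQ skin was −0.80, against 0.66 with it.

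The receptor of these ligands, Cxcr2, rose in IMQ skin. It measured 2.08, 1.85, 3.52 and 17.04 CPM in Tcn2-/- IMQ skin, 48.6, 21.4, 15.9, 16.3 and 38.99 CPM in IMQ skin and 0.275, 0.843 and 1.53 CPM in control skin. Every IMQ library and every Tcn2-/- IMQ library lay above the controls, and Tcn2-/- IMQ replicate 4 reached into the range of the IMQ libraries. Cxcr2 was 4.99 ± 0.96 higher on the log2 scale in IMQ than in control skin (SE, adjusted p = 0.0348). The change was −2.20 ± 0.72 between Tcn2-/- IMQ and IMQ skin (adjusted p = 0.260), and 2.79 ± 0.89 between Tcn2-/- IMQ and control skin (adjusted p = 0.170). Without Tcn2-/- IMQ replicate 4 these values of Cxcr2 were −3.50 and 1.49, neither called. The call between IMQ and control skin was lost, at adjusted p-values of 0.0521 to 0.168, when any 1 control or IMQ replicate 1, 3, 4 or 5 was left out. Cxcr1, the other receptor of this kind, had 0 counts in Tcn2-/- IMQ skin, 56 in IMQ skin and 0 in control skin. With 3 counts per group taken as the floor it was at least 14.9-fold lower in Tcn2-/- IMQ than in IMQ skin and at least 11.9-fold higher in IMQ than in control skin.

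Summed neutrophil markers were also highest in IMQ skin. The 18 markers summed to 328, 484, 1051 and 1390 CPM in Tcn2-/- IMQ skin, to 2531 to 12090 CPM in IMQ skin with IMQ replicate 1 highest, and to 92.1, 180.1 and 213 CPM in control skin, so the groups did not overlap. Of 16 tested markers S100a8, S100a9 and Trem1 rose in IMQ skin against control skin, S100a8 rose in Tcn2-/- IMQ skin against control skin, and 0 were called between Tcn2-/- IMQ and IMQ skin, where the median log2 change was −3.04. That median was 3.32 in IMQ against control skin and 0.58 in Tcn2-/- IMQ against control skin. In the latter, tested markers lay on both sides of 0, among them Clec4e at −1.68 and Clec4d at 2.16. S100a8 made up a large share of the sums in both IMQ-treated groups, at 366 ± 182 CPM in Tcn2-/- IMQ skin and 2277 ± 1693 CPM in IMQ skin (SD). Ly6g, Mrgpra2a and Stfa2l1 were among 8 markers at 0 in at least 1 Tcn2-/- IMQ library. All of these named markers were also at 0 in at least 1 control library, and Ly6g and Mrgpra2a in at least 1 IMQ library. The part of neutrophil content in the values of Cxcr2, Cxcl2 and Cxcl3 was not tested.

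**Figure D2:**
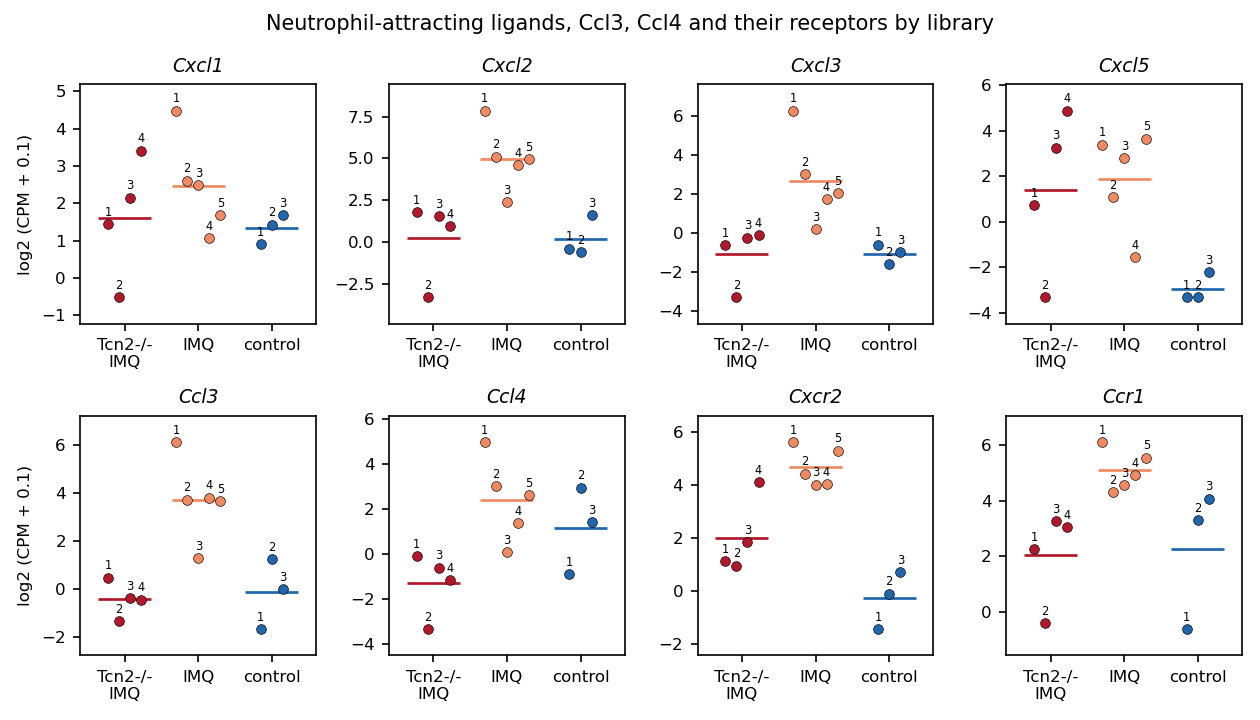
Level in each library, as log2 (CPM + 0.1), of the ligands Cxcl1, Cxcl2, Cxcl3, Cxcl5, Ccl3 and Ccl4 and the receptors Cxcr2 and Ccr1, with replicate numbers beside the points and the group mean as a line. For Cxcl2, Cxcl3 and Ccl3 the 4 Tcn2-/- IMQ libraries lie below all 5 IMQ libraries, and IMQ replicate 1 is highest.

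Cxcl1, Cxcl2 and Cxcl3 lie beside Cxcl5 within a stretch of chromosome 5 (90907219 to 91053797, GRCm39, the build of the count table), and their promoters share a motif of the kind that the transcription factor NF-kB binds. The promoters of these ligands, of Ccl20 and of Cxcl10 are shown because each holds a match, Cxcl1, Cxcl2 and Cxcl3 as neighbours with one role, and Ccl20 and Cxcl10 as ligands whose libraries did not overlap between Tcn2-/- IMQ and control skin. The sequences are the 250 bases before the annotated start, from RefSeq on GRCm38.p6, a different build from that of the count table, written 5′ to 3′ on the gene's strand. They are chr5:90890995-90891244 (plus strand) for Cxcl1, chr5:90903649-90903898 (plus strand) for Cxcl2, chr5:90785851-90786100 (plus strand) for Cxcl3, chr1:83116516-83116765 (plus strand) for Ccl20 and chr5:92348890-92349139 (minus strand) for Cxcl10. Capitals mark each match to GGGNNTTTCC, or, in Cxcl10, to TTTCNNTTTC, a pattern like the interferon-stimulated response element, searched on both strands. No match overlapped another.
Cxcl1: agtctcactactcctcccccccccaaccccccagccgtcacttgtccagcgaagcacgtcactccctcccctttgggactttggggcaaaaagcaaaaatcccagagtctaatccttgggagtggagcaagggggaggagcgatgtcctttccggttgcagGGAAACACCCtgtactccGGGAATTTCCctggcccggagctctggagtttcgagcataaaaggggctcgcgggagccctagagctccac
Cxcl2: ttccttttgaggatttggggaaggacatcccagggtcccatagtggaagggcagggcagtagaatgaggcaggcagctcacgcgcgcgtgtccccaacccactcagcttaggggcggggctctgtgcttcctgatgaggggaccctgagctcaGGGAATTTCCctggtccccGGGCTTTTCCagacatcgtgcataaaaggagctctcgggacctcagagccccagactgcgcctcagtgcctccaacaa
Cxcl3: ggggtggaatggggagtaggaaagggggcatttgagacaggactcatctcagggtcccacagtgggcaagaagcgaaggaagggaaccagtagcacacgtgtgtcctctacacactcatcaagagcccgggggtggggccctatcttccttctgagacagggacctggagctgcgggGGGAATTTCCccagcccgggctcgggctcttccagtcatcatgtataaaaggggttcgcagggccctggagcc
Ccl20: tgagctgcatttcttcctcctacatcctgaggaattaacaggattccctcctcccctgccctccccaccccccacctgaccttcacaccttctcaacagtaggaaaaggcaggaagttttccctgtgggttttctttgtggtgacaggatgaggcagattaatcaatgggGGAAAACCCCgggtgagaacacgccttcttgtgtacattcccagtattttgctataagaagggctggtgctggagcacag
Cxcl10: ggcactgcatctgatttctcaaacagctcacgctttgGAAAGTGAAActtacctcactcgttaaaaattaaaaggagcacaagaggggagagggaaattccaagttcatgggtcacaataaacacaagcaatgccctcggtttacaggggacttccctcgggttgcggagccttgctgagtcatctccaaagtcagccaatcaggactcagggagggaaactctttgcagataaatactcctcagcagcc
Of 58 members 45 had a RefSeq promoter entry, and Cxcl5, which had none, was not searched. GGGNNTTTCC was found in 6 of the 45 (13.3%), namely Cxcl1, Cxcl2, Cxcl3, Ccl20, Ccl9 and Ccr3, and in 464 of all 32851 promoters of this length (1.41%). TTTCNNTTTC was found in 3 of the 45 (6.67%), namely Cxcl10, Ccl19 and Cxcl14, and in 978 of all promoters (2.98%). Members were counted by gene, some with several promoter entries, and the background by entry, so these shares differ in unit. Cxcl1 and Cxcl2 each held 2 matches to the first pattern. Genes with the same match did not share a pattern over the groups: Cxcl2 and Cxcl3 were high in IMQ skin, whereas Ccl20 was highest in control skin.

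The interferon-induced ligands were highest in control skin and lowest in Tcn2-/- IMQ skin, and Cxcl9 and Cxcl10 fell in Tcn2-/- IMQ skin against control skin. Cxcl9 (ENSMUSG00000029417, chromosome 5, 92469206 to 92475938, minus strand) measured 1.902, 1.49, 0.927 and 0.35 CPM in Tcn2-/- IMQ skin, 9.62, 55.5, 8.36, 7.46 and 3.899 CPM in IMQ skin and 29.6, 49.9 and 30.8 CPM in control skin. Cxcl10 measured 3.09, 1.73, 2.66 and 1.28 CPM in Tcn2-/- IMQ skin, 4.31, 50.3, 4.12, 5.76 and 3.96 CPM in IMQ skin and 28.4, 122 and 38.6 CPM in control skin. For both genes the Tcn2-/- IMQ libraries lay below every other library, and IMQ replicate 2 stood far above the other IMQ libraries, above the controls for Cxcl9 and among them for Cxcl10. The log2 change against control skin was −4.97 ± 0.90 for Cxcl9 (SE, adjusted p = 0.0267) and −4.84 ± 1.02 for Cxcl10 (adjusted p = 0.0432). Between Tcn2-/- IMQ and IMQ skin it was −3.85 ± 0.83 (adjusted p = 0.128) and −2.64 ± 0.89 (adjusted p = 0.278), and without IMQ replicate 2 it was −2.64 for Cxcl9 and −1.04 for Cxcl10, neither called. Between IMQ and control skin neither was called, and without IMQ replicate 2 both were, with log2 changes of −2.33 for Cxcl9 (adjusted p = 0.0289) and −3.80 for Cxcl10 (adjusted p = 0.00577).

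Cxcl11, the third ligand of Cxcr3, had at most 0.297 CPM in Tcn2-/- IMQ skin and 0.424 CPM in IMQ skin, against 0.66 to 1.52 CPM in control skin. Cxcl10 and Cxcl11 both overlap Art3, which lies on the opposite strand and has more counts than either. Whether counting used strand is not stated, so reads of these genes may be uncertain. The log2 change of Art3 between Tcn2-/- IMQ and control skin was −0.41 (adjusted p = 0.539). Cxcr3, the receptor of these ligands on activated T cells, measured 0.475, 0.179, 8.53 and 4.96 CPM in Tcn2-/- IMQ skin, 1.92, 2.41, 5.94, 8.13 and 7.498 CPM in IMQ skin and 0, 2.81 and 5.22 CPM in control skin, with all groups overlapping.

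Ccr2, the receptor that monocytes need to leave the bone marrow and follow Ccl2, fell in Tcn2-/- IMQ skin against control skin and was about as low against IMQ skin. Ccr2 (ENSMUSG00000049103, chromosome 9, 123901987 to 123913594, plus strand) measured 4.397, 1.49, 4.88 and 2.8 CPM in Tcn2-/- IMQ skin, 51.2, 86.7, 72.5, 148 and 115 CPM in IMQ skin and 7.37, 91.4 and 197 CPM in control skin. Every Tcn2-/- IMQ library lay below every other library, and control replicate 1 was the only other library under 50 CPM. Ccr2 fell by 4.86 ± 0.83 on the log2 scale in Tcn2-/- IMQ against control skin (SE, adjusted p = 0.0224). Between Tcn2-/- IMQ and IMQ skin the log2 change was −4.799 ± 0.80 (adjusted p = 0.0709), and it passed the threshold in 7 of 25 other settings, among them DESeq2 (adjusted p = 5.23e-10) and a fit without control replicate 1 (adjusted p = 0.00285). Between IMQ and control skin it was −0.06 on the log2 scale. With sex as a covariate the change of Tcn2-/- IMQ against control skin was −3.44 (adjusted p = 0.495). Control replicate 1 was the only control with Y-linked counts, so among the controls sex and that library cannot be told apart.

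Summed macrophage markers did not follow the same pattern over the libraries, while single markers differed. The 18 macrophage and monocyte markers summed to 1677, 529, 5355 and 4946 CPM in Tcn2-/- IMQ skin, to 2677 to 8479 CPM in IMQ skin and to 268, 3225 and 4567 CPM in control skin. Tcn2-/- IMQ replicates 3 and 4 lay within the IMQ range of this sum while their Ccr2 was 4.88 and 2.80 CPM, against at least 51.2 CPM in the IMQ libraries. Of the 18 markers 0 were called in any comparison, and their median log2 change between Tcn2-/- IMQ and IMQ skin was −0.95. Ly6c2, a marker of inflammatory monocytes that carry Ccr2, averaged 0.37 ± 0.17 CPM in Tcn2-/- IMQ skin, 20.5 ± 29.5 CPM in IMQ skin and 17.04 ± 16.1 CPM in control skin (SD, n = 4, 5 and 3), with a log2 change against control skin of −5.48 ± 1.25 (adjusted p = 0.0563). The Tcn2-/- IMQ libraries of Ly6c2, Cd14 and Ctss lay below every IMQ library, while those of Cd163 and C1qb overlapped them. In Tcn2-/- IMQ replicates 3 and 4 Cd163 measured 479 and 707.5 CPM, against 90.06 to 401 CPM in IMQ skin. The sum therefore does not stand for Ly6c2, Cd14 or Ctss. Ctss measured 13.8 to 171 CPM in Tcn2-/- IMQ skin and 246 to 360 CPM in IMQ skin. No marker of the list was at 0 in any library. The part of monocyte and macrophage content in the values of Ccr2 was not tested.

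**Figure D3:**
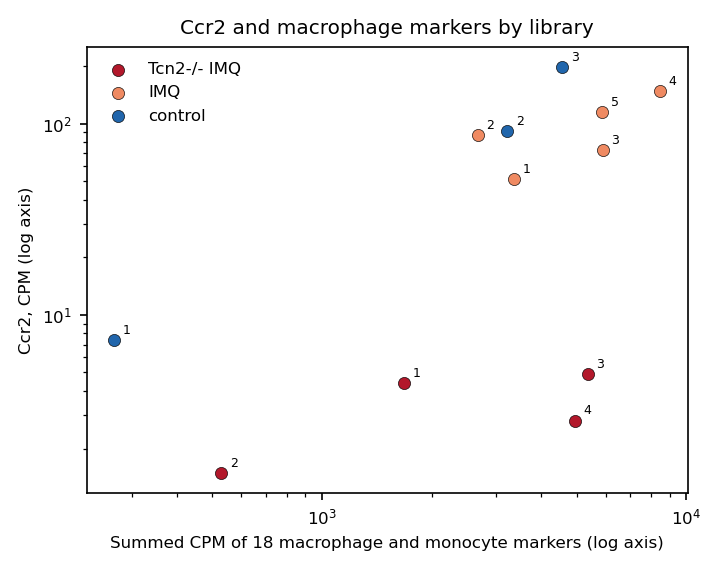
Ccr2 in CPM against the summed CPM of 18 macrophage and monocyte markers, both on log axes, with 1 point per library and replicate numbers beside the points. The 4 Tcn2-/- IMQ libraries have 1.49 to 4.88 CPM of Ccr2, and replicates 3 and 4 have marker sums of 5355 and 4946 CPM, within the IMQ range of 2677 to 8479 CPM.

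Ccl2, the main ligand of Ccr2, was not called in any comparison. It measured 7.25, 6.25, 12.2 and 16.1 CPM in Tcn2-/- IMQ skin, 5.65, 8.93, 18.3, 11.8 and 13.4 CPM in IMQ skin and 11.7, 28.03 and 23 CPM in control skin. The Tcn2-/- IMQ and IMQ libraries overlapped over nearly their whole range, with a log2 change of −0.15 (adjusted p = 0.900). The other ligands that act on Ccr2 in the mouse, Ccl7 and Ccl12, averaged 18.4 ± 13.2 and 6.15 ± 5.55 CPM in Tcn2-/- IMQ skin, 19.8 ± 8.95 and 5.37 ± 1.54 CPM in IMQ skin and 19.3 ± 13.6 and 7.96 ± 6.82 CPM in control skin, differences smaller than the spread within the groups.

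Ccr1 and Cx3cr1, further receptors of myeloid cells, also had lower means in Tcn2-/- IMQ than in IMQ skin. Ccr1, a receptor of Ccl3, measured 4.69, 0.655, 9.46 and 8.17 CPM in Tcn2-/- IMQ skin, 69.05, 19.6, 23.4, 30.3 and 46.97 CPM in IMQ skin and 0.55, 9.66 and 16.8 CPM in control skin. Its libraries did not overlap between Tcn2-/- IMQ and IMQ skin and overlapped between Tcn2-/- IMQ and control skin. The log2 change of Ccr1 between Tcn2-/- IMQ and IMQ skin was −2.72 ± 0.86 (SE, adjusted p = 0.250). Cx3cr1, the fractalkine receptor of resident macrophages, measured 3.09, 0.596, 2.102 and 0.467 CPM in Tcn2-/- IMQ skin, 1.51, 5.11, 8.85, 8.01 and 10.02 CPM in IMQ skin and 2.2, 5.73 and 3.18 CPM in control skin, and the groups overlapped. Its gene model spans several other genes, so its reads may be uncertain. Its ligand Cx3cl1 measured 9.63, 13.3, 12.4 and 11.1 CPM in Tcn2-/- IMQ skin, 5.83, 10.7, 12.8, 15.9 and 14.7 CPM in IMQ skin and 16.6, 11.9 and 11.4 CPM in control skin, with no group apart. Ccr1l1 had 0.175 CPM at most in Tcn2-/- IMQ skin, 0.91 in IMQ skin and 0.28 in control skin.

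The ligands Ccl3, Ccl4 and Ccl5, which attract monocytes and T cells, were low in the same libraries. Ccl3 measured 1.31, 0.298, 0.68 and 0.642 CPM in Tcn2-/- IMQ skin, 69.9, 13.2, 2.36, 14.1 and 12.6 CPM in IMQ skin and 0.22, 2.303 and 0.909 CPM in control skin. Ccl4 measured 0.832, 0, 0.556 and 0.35 CPM in Tcn2-/- IMQ skin, 31.2, 7.99, 0.969, 2.49 and 5.998 CPM in IMQ skin and 0.44, 7.58 and 2.56 CPM in control skin. Ccl5, singled out after its values were seen, measured 0.772, 0, 0.371 and 0 CPM in Tcn2-/- IMQ skin, 2.56, 8.58, 1.64, 3.82 and 1.92 CPM in IMQ skin and 1.59, 8.99 and 4.54 CPM in control skin. All 3 ligands lay below every IMQ library in the Tcn2-/- IMQ libraries, and Ccl5 below every control too. Their log2 changes between Tcn2-/- IMQ and IMQ skin were −4.92 ± 1.01, −4.46 ± 1.23 and −3.67 ± 1.002, with adjusted p-values of 0.123, 0.185 and 0.183. These ligands lie together on chromosome 11 (83416604 to 83555509, GRCm39) with Ccl6 and Ccl9, which did not share their pattern: Ccl9 averaged 123 ± 109 CPM in Tcn2-/- IMQ skin, 127 ± 40.1 CPM in IMQ skin and 119 ± 106 CPM in control skin. The Tcn2-/- IMQ libraries of Ccl9 measured 37.4, 22.15, 196 and 236 CPM, and its IMQ libraries 70.6 to 166 CPM.

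Ccl1, a ligand of Ccr8, fell in Tcn2-/- IMQ skin against control skin at very low levels. It measured 0.119, 0.0595, 0 and 0.117 CPM in Tcn2-/- IMQ skin, 0.291, 0.411, 0.485, 0.0607 and 0.3 CPM in IMQ skin and 1.54, 2.02 and 1.08 CPM in control skin, 114 counts in all. The controls lay above all IMQ-treated libraries of either genotype. Its log2 change was −4.25 ± 0.72 for Tcn2-/- IMQ against control skin (SE, adjusted p = 0.0224) and −2.29 ± 0.58 for IMQ against control skin (adjusted p = 0.0841). Ccr8, its receptor on regulatory and skin-homing T cells, had 3 counts in Tcn2-/- IMQ skin, 35 in IMQ skin and 75 in control skin. All 3 counts in Tcn2-/- IMQ skin came from replicate 3, and 19 of the 35 in IMQ skin came from replicate 2. Scaled to depth, the ratio of IMQ over Tcn2-/- IMQ skin was 9.31 (exact 95% counting interval 2.94 to 47.3) and that of control over Tcn2-/- IMQ skin was 31.2 (10.3 to 154.8), intervals that leave out the spread between libraries. Ccr8 was called neither between Tcn2-/- IMQ and IMQ skin (adjusted p = 0.342), where the libraries overlapped, nor between Tcn2-/- IMQ and control skin (adjusted p = 0.0768).

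Receptors of lymphocytes and dendritic cells included further calls. Ccr7, which leads dendritic cells and naive T cells to lymph nodes, measured 1.19, 1.13, 0.371 and 0.467 CPM in Tcn2-/- IMQ skin, 1.57, 3.11, 2.605, 1.698 and 1.74 CPM in IMQ skin and 3.08, 4.27 and 4.88 CPM in control skin. Xcr1, a receptor of cross-presenting dendritic cells, measured 0.416, 0.238, 0.371 and 0.233 CPM in Tcn2-/- IMQ skin, 0.408, 0.588, 1.27, 1.88 and 1.44 CPM in IMQ skin and 0.715, 4.72 and 3.01 CPM in control skin. For Ccr7 the Tcn2-/- IMQ libraries lay below all others, and for Xcr1 they lay below the controls and overlapped IMQ replicate 1. Against control skin Ccr7 fell by 2.36 ± 0.45 on the log2 scale (SE, adjusted p = 0.0319) and Xcr1 fell by 3.13 ± 0.67 (adjusted p = 0.0470). The calls of Xcr1 and Cxcl10 also ended without Tcn2-/- IMQ replicate 1 or 2 or IMQ replicate 4, and that of Xcr1 without IMQ replicate 3 or 5, at adjusted p-values of 0.0541 to 0.0789. The ligands of Ccr7, Ccl19 and Ccl21a, were not called. Ccl19 measured 0.594, 0.119, 0.804 and 0.408 CPM in Tcn2-/- IMQ skin, 0.408, 0.47, 0.485, 0.425 and 0.72 CPM in IMQ skin and 0.55, 1.35 and 1.65 CPM in control skin. Ccl21a, which has near-identical copies, measured 35.5, 26.9, 71.2 and 37.6 CPM in Tcn2-/- IMQ skin, 44.6, 32.4, 62.6, 39 and 41.1 CPM in IMQ skin and 1.93, 76.7 and 111 CPM in control skin, where control replicate 1 was far below the other two.

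Cxcr6, the receptor of resident memory and natural killer T cells, shared with Ccr2 the lowest adjusted p among members between Tcn2-/- IMQ and IMQ skin and was singled out after its values were seen. It measured 1.31, 1.43, 0.247 and 0.875 CPM in Tcn2-/- IMQ skin, 7.52, 6.697, 5.94, 10.2 and 11.04 CPM in IMQ skin and 1.93, 5.897 and 6.53 CPM in control skin. The Tcn2-/- IMQ libraries lay below all others, and the IMQ libraries were close together. The log2 change was −3.09 ± 0.52 against IMQ skin (SE, adjusted p = 0.0709) and −2.30 ± 0.54 against control skin (adjusted p = 0.0606). Its ligand Cxcl16 averaged 27.1 ± 5.6 CPM in Tcn2-/- IMQ skin, 39.0 ± 4.44 CPM in IMQ skin and 44.5 ± 10.2 CPM in control skin (SD, n = 4, 5 and 3), and its Tcn2-/- IMQ libraries also lay below all others. Cxcr6 lies opposite Fyco1, which has more counts and a log2 change of 0.31 between Tcn2-/- IMQ and IMQ skin, so a share of its reads may be uncertain.

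**Figure D4:**
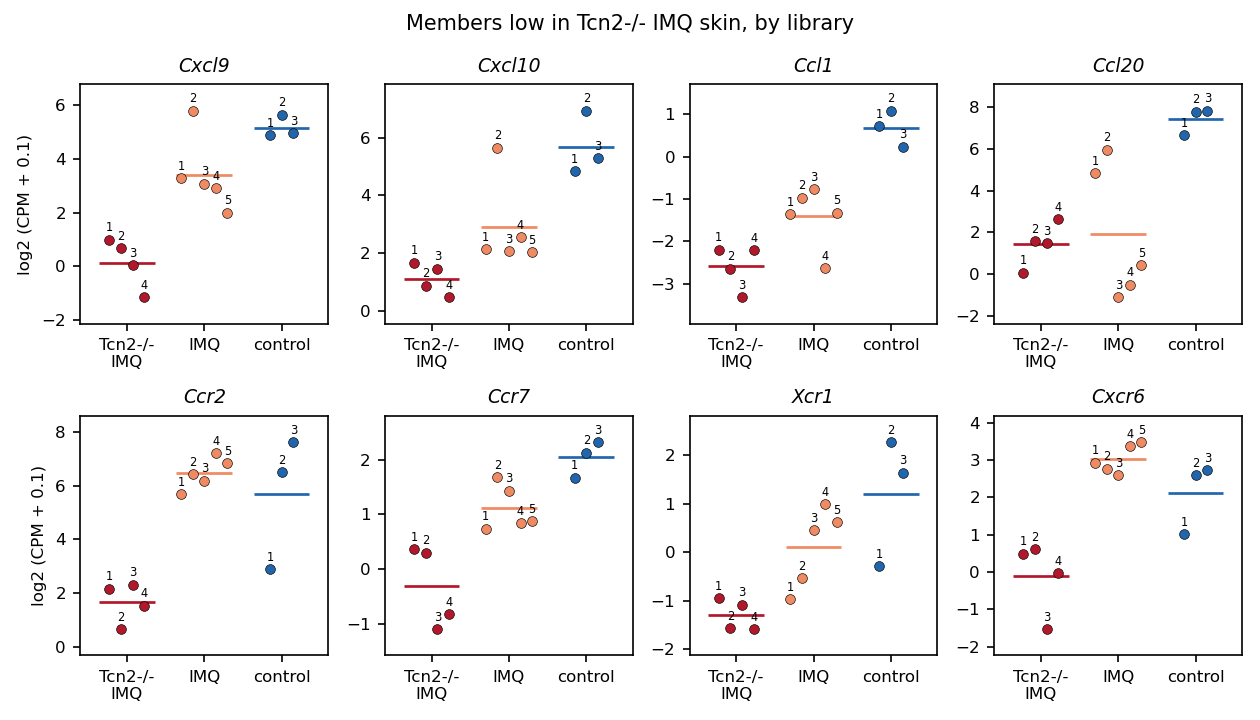
Level in each library, as log2 (CPM + 0.1), of the ligands Cxcl9, Cxcl10, Ccl1 and Ccl20 and the receptors Ccr2, Ccr7, Xcr1 and Cxcr6, with replicate numbers beside the points and the group mean as a line. For Cxcl9, Cxcl10, Ccr2, Ccr7 and Cxcr6 the 4 Tcn2-/- IMQ libraries lie below all 8 others, and IMQ replicate 2 is the highest IMQ library of Cxcl9 (55.5 CPM) and Cxcl10 (50.3 CPM).

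Summed dendritic cell markers were lower in Tcn2-/- IMQ than in IMQ skin, and summed T cell markers overlapped. The 16 dendritic and Langerhans cell markers summed to 321 to 534.5 CPM in Tcn2-/- IMQ skin, 840 to 1534 CPM in IMQ skin and 510.5, 2483 and 3491 CPM in control skin, and Cd74, H2-Aa, H2-Ab1, H2-Eb1, Flt3 and Itgax fell in Tcn2-/- IMQ against control skin. The 20 T and NK cell markers summed to 120.2 to 210 CPM in Tcn2-/- IMQ skin, 94.1 to 242 CPM in IMQ skin and 78.0 to 299 CPM in control skin, and Il7r and Nkg7 fell in Tcn2-/- IMQ against control skin. The T cell sums overlapped between all groups and the dendritic sums did not overlap between Tcn2-/- IMQ and IMQ skin. Thy1, which other skin cells also express, made up much of the T cell sums, at 122 ± 33.4 CPM in Tcn2-/- IMQ skin, 113 ± 53.2 CPM in IMQ skin and 109 ± 63.8 CPM in control skin (SD). The median log2 change over the 20 T and NK cell markers was −1.47 between Tcn2-/- IMQ and IMQ skin, −0.85 between IMQ and control skin and −2.33 between Tcn2-/- IMQ and control skin. Over the dendritic cell markers it was −2.19, −0.33 and −2.29 in the same comparisons. Against that −2.19, Cd207, Epcam and Mfge8 had log2 changes of 0.48, 0.16 and 0.17 between Tcn2-/- IMQ and IMQ skin. Cd74 and the H2 genes made up much of the dendritic sums in IMQ skin. Cd74 alone averaged 40.3 ± 32.2 CPM in Tcn2-/- IMQ skin, 424 ± 125 CPM in IMQ skin and 832 ± 679 CPM in control skin (SD). Siglech, Klrb1c and Ncr1 were at 0 in at least 1 Tcn2-/- IMQ library, and the part of these cell types in the receptor values was not tested.

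Other receptors of lymphocytes and eosinophils were not called. Ccr4, the skin-homing receptor of T cells, measured 0.475, 0.655, 0.309 and 1.98 CPM in Tcn2-/- IMQ skin, 1.46, 5.05, 0.182, 0.91 and 1.86 CPM in IMQ skin and 3.41, 6.12 and 5.79 CPM in control skin. Its ligands were scarce. Ccl22 measured 2.14, 0.715, 0.68 and 2.86 CPM in Tcn2-/- IMQ skin, 2.62, 1.53, 2.54, 3.09 and 1.14 CPM in IMQ skin and 2.42, 11.2 and 9.43 CPM in control skin, and Ccl17 measured 0.475, 0.0595, 0.309 and 0.233 CPM in Tcn2-/- IMQ skin, 1.05, 0.352, 0.182, 0.485 and 0.36 CPM in IMQ skin and 0.825, 0.505 and 0.284 CPM in control skin. Ccr10, the receptor of Ccl27a, measured 0.951, 0.0595, 1.36 and 0.758 CPM in Tcn2-/- IMQ skin, 0.291, 0.823, 0.727, 1.58 and 1.2 CPM in IMQ skin and 0.88, 0.281 and 0.738 CPM in control skin. Ccr3, the eosinophil receptor, averaged 0.97 ± 0.82 CPM in Tcn2-/- IMQ skin, 3.30 ± 2.46 CPM in IMQ skin and 1.598 ± 1.5 CPM in control skin, and its ligands Ccl11 and Ccl24 were not called in any comparison. Ccr9, the gut-homing receptor, averaged 3.36 ± 2.75 CPM in Tcn2-/- IMQ skin, 4.58 ± 0.37 CPM in IMQ skin and 1.33 ± 1.27 CPM in control skin, but overlaps several other genes. Cxcr5 had 1 count in Tcn2-/- IMQ skin, 19 in IMQ skin and 5 in control skin.

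Ccl20 was highest in control skin. It measured 0.951, 2.86, 2.72 and 6.13 CPM in Tcn2-/- IMQ skin, 28.4, 62.3, 0.363, 0.607 and 1.26 CPM in IMQ skin and 100.5, 219 and 227 CPM in control skin. Every IMQ-treated library of either genotype lay below the controls, and IMQ replicates 1 and 2 stood far above the other IMQ libraries. The log2 change was −3.29 ± 1.27 for IMQ against control skin (adjusted p = 0.241) and −5.84 ± 1.55 for Tcn2-/- IMQ against control skin (adjusted p = 0.0945), neither called. For Tcn2-/- IMQ against IMQ skin it was −2.55, and −1.28 without IMQ replicate 2. Its receptor Ccr6 measured 0.297, 0, 0.0618 and 0.117 CPM in Tcn2-/- IMQ skin, 0.874, 0.646, 0.303, 0.849 and 0.3 CPM in IMQ skin and 0, 2.19 and 1.25 CPM in control skin, with the Tcn2-/- IMQ libraries narrowly below the IMQ libraries.

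Ackr4, the atypical receptor that takes up Ccl19, Ccl21 and Ccl25, fell in IMQ skin. Ackr4 (ENSMUSG00000079355, chromosome 9, 103961356 to 104004132, minus strand) measured 30.8, 22.3, 7.29 and 10.4 CPM in Tcn2-/- IMQ skin, 11.1, 12.1, 6.18, 8.98 and 7.44 CPM in IMQ skin and 35.4, 56.6 and 52.2 CPM in control skin. Every IMQ-treated library lay below the controls, and Tcn2-/- IMQ replicates 1 and 2 lay above every IMQ library while replicates 3 and 4 lay among them. The log2 change for IMQ against control skin was −2.39 ± 0.41 (SE, adjusted p = 0.0223). This call was lost, at adjusted p-values of 0.0521 to 0.119, without control replicate 2 or 3 or IMQ replicate 3, 4 or 5. Acad11, which overlaps Ackr4 on the opposite strand and has more counts, had a log2 change of −0.41 in this comparison (adjusted p = 0.420).

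Ccl27a, the keratinocyte ligand that draws T cells with Ccr10 to skin, followed the same division of libraries. It measured 23.2, 27.6, 5.07 and 3.67 CPM in Tcn2-/- IMQ skin, 2.33, 4.76, 5.21, 4.97 and 4.799 CPM in IMQ skin and 30.7, 26.1 and 18.9 CPM in control skin. Tcn2-/- IMQ replicates 1 and 2 lay within the range of the controls and replicates 3 and 4 within that of the IMQ libraries. Its log2 change was 1.75 ± 0.53 for Tcn2-/- IMQ against IMQ skin (SE, adjusted p = 0.232), and −2.52 ± 0.57 for IMQ against control skin (adjusted p = 0.0573). Without Tcn2-/- IMQ replicates 1 and 2 the first of these was −0.01, and that of Ackr4 was −0.05, against 0.95 with them. Ccl27a overlaps Il11ra1, which has more counts, and has a near-identical copy, Ccl27b, with at most 2.44 CPM in any library, so its reads may be uncertain.

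The opposite division was seen in abundant ligands of macrophages and stroma, singled out after their values were seen. Cxcl13, which attracts B cells, measured 13.01, 5.002, 377 and 445 CPM in Tcn2-/- IMQ skin, 194, 35.5, 66.03, 148 and 105 CPM in IMQ skin and 0.88, 50.04 and 47.1 CPM in control skin. Ccl6 measured 49.97, 24.6, 709 and 615 CPM in Tcn2-/- IMQ skin, 226, 74.5, 201, 299.6 and 411 CPM in IMQ skin and 11.1, 97.5 and 175 CPM in control skin. Ccl8 measured 73.98, 54.6, 472 and 378 CPM in Tcn2-/- IMQ skin, 178, 139, 370, 371 and 357 CPM in IMQ skin and 15.7, 203 and 327 CPM in control skin. In all 3 ligands Tcn2-/- IMQ replicates 1 and 2 lay below every IMQ library and replicates 3 and 4 above every one, and none was called. Ccl9, Ccl12 and Ccr9 were divided in the same way and were not called either. The 17 epidermal markers divided the same libraries: they summed to 15520 and 16980 CPM in Tcn2-/- IMQ replicates 1 and 2 and 72150 and 61330 CPM in replicates 3 and 4, 30670 to 50720 CPM in IMQ skin and 9952 to 10930 CPM in control skin, and the part of this in the values of Ccl27a, Ackr4 or the ligands was not tested.

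**Figure D5:**
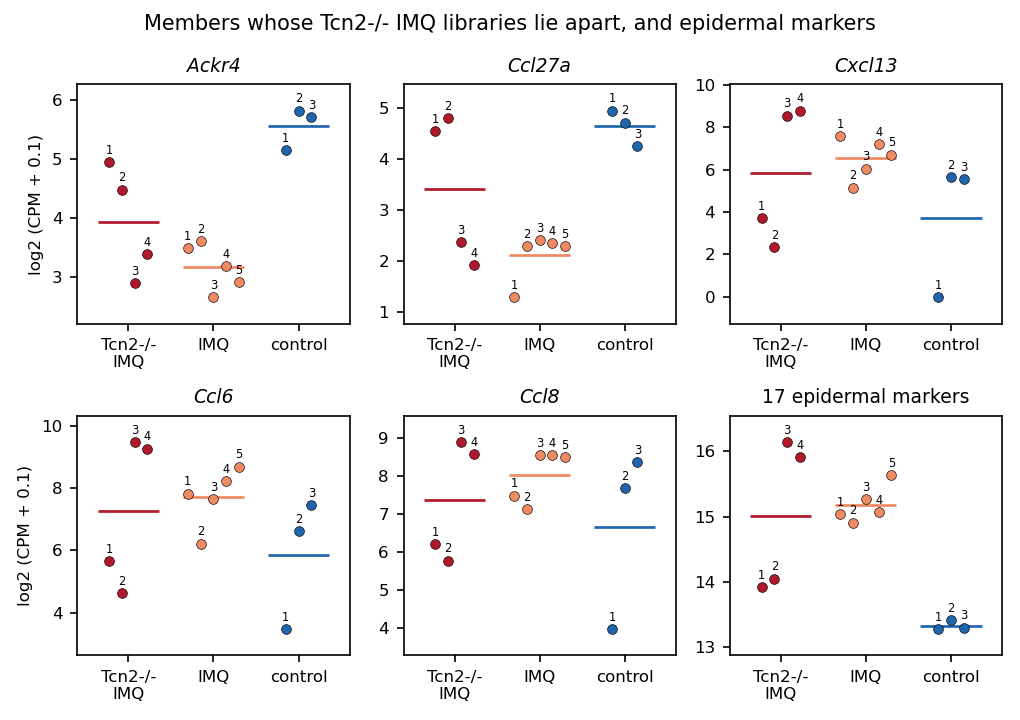
Level in each library, as log2 (CPM + 0.1), of Ackr4, Ccl27a, Cxcl13, Ccl6, Ccl8 and the summed CPM of 17 epidermal markers, with replicate numbers beside the points and the group mean as a line. Tcn2-/- IMQ replicates 1 and 2 lie with the controls for Ccl27a (23.2 and 27.6 CPM) and below every IMQ library for Cxcl13, Ccl6 and Ccl8.

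The remaining members, among them those that hold cells in tissue, were not called in any comparison. Cxcl12, the stromal ligand of Cxcr4 that retains cells in tissue, measured 169.8, 86.6, 635 and 446 CPM in Tcn2-/- IMQ skin, 198, 171, 514, 285 and 498 CPM in IMQ skin and 40.4, 162 and 222 CPM in control skin. Cxcr4 measured 13.7, 21.2, 6.62 and 4.73 CPM in Tcn2-/- IMQ skin, 33.5, 21.7, 20.2, 18.1 and 27.2 CPM in IMQ skin and 12.98, 24.04 and 22.1 CPM in control skin. Tcn2-/- IMQ replicates 3 and 4 had the lowest Cxcr4 and replicate 2 alone reached the IMQ range. Ackr3, which scavenges Cxcl12, measured 64, 21.7, 77.96 and 77.1 CPM in Tcn2-/- IMQ skin, 25.4, 27.5, 94.6, 130.5 and 76.4 CPM in IMQ skin and 18.1, 53.02 and 95.1 CPM in control skin. Cxcl14, a ligand of resting epidermis, measured 32.6, 56.99, 90.6 and 84.01 CPM in Tcn2-/- IMQ skin, 15.7, 128, 60.6, 30.6 and 203 CPM in IMQ skin and 87.9, 38.9 and 29.6 CPM in control skin. Ccrl2, which presents chemerin on activated cells, averaged 2.11 ± 0.40 CPM in Tcn2-/- IMQ skin, 5.75 ± 3.22 CPM in IMQ skin and 5.52 ± 2.62 CPM in control skin (SD, n = 4, 5 and 3), and its Tcn2-/- IMQ libraries lay below all others. Ackr1, Ackr2, Ccl25, Ccl28 and Xcl1 were not called and overlapped between the groups in every comparison.

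Of 36 tested genes of chemokine receptor signalling, 0 were called between Tcn2-/- IMQ and IMQ skin (median log2 change −0.83) or between IMQ and control skin (0.44), and between Tcn2-/- IMQ and control skin (−0.33) Prkcd, a protein kinase C, fell, by 0.67 ± 0.13 on the log2 scale (SE, adjusted p = 0.0299). Of 19 tested inducers of chemokines, Il1b fell in Tcn2-/- IMQ against IMQ skin and none was called in the other comparisons. Il1b, the cytokine that induces neutrophil-attracting ligands through NF-kB, measured 2.73, 0.834, 3.52 and 3.27 CPM in Tcn2-/- IMQ skin, 274, 64.6, 53.1, 57.9 and 77.02 CPM in IMQ skin and 4.34, 13.4 and 18.5 CPM in control skin. The Tcn2-/- IMQ libraries of Il1b lay below all others, and IMQ replicate 1 was highest as it was for Cxcl2, Cxcl3, Ccl3 and Ccl4. The part of Il1b in the values of these ligands was not tested. The log2 change of Il1b between Tcn2-/- IMQ and IMQ skin was −5.34 ± 0.73 (SE, adjusted p = 0.0349). Il17a, Il22 and Il13 were at 0 in at least 1 library of each group. Of 17 tested enzymes and binders of chemokines, Mmp12, which cleaves ELR chemokines, fell in Tcn2-/- IMQ against control skin by 3.32 ± 0.53 (SE, adjusted p = 0.0205) and no other was called. Of 9 tested chemokine-system genes outside the naming rule, Cd74, a receptor of Mif, fell in the same comparison and no other was called.

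Among the remaining lists, 5 of 17 epidermal markers (Krt1, Krt6a, Krt6b, Krt16 and Flg) rose against control skin in both IMQ-treated groups. No B cell, mast cell, endothelial, fibroblast or muscle marker was called in any comparison. B cell markers summed to 14.7 to 37.1 CPM in Tcn2-/- IMQ skin, 76.3 to 432 CPM in IMQ skin and 13.7 to 116.5 CPM in control skin, beside which stand the 1, 19 and 5 counts of Cxcr5, the B cell receptor of Cxcl13. Ighm made up most of these sums. Cxcr5 lies opposite Bcl9l, which has 15815 counts, so its reads may be uncertain.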

How the data were processed

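RNA was measured in 12 mouse skin libraries made from polyadenylated RNA, per the labels' protocols. The authors deposited whole-number counts per gene, not normalized. The genome build was GRCm39, per the submitters' processing notes. The aligner, counter, annotation release and use of strand are not stated in the labels or file headers, so reads of overlapping genes (16 members) or near-identical copies can be misassigned. Groups came from the sample titles. Library totals were 16182324 to 18503487 counts, and values below 1 CPM rest on few reads. The labels mention no molecular identifiers, so reads are not counted as independent molecules, and counting intervals and floors cover counting error only.

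The analysis used edgeR 4.0.16 under R 4.3.3: filterByExpr over the 3 groups, TMM factors (0.927 to 1.115), 1 mean per group in a quasi-likelihood model over all 12 libraries (glmQLFit, glmQLFTest, 2-sided), and Benjamini-Hochberg adjustment over 18147 genes, called below 0.05. CPM uses TMM factors. Levels per kilobase use GENCODE M21 exon lengths. Other settings included DESeq2 1.42.0 and limma 3.58.1 (voom). The fits were tested on simulated counts. No set test was run. The members, gene lists and tests were chosen with earlier results of these data known. Values per library were planned for members called in any comparison, for 30 members fixed by role and for the 3 largest changes per comparison among tested members with a group mean of at least 1 CPM, and other members singled out are named as such. The counts over members include 1 member whose own values are not reported here.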

Additional observations from a re-analysis of the deposited data

Results flagged for a closer look

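In 64 groups of 4 or 5 libraries (the 32 tested members chosen for values per library, in Tcn2-/- IMQ and in IMQ skin), a library far from the others of its group was found 3 times, and chance gives this in about 1 of 20 groups. Cxcl10 in IMQ replicate 2 stood at 50.29 CPM, against 3.96 to 5.76 CPM in the other IMQ libraries. Ccl27a in IMQ replicate 1 stood at 2.331 CPM, against 4.76 to 5.21 CPM in the other IMQ libraries. Ackr3 in Tcn2-/- IMQ replicate 2 stood at 21.74 CPM, against 64.0 to 78.0 CPM in the other Tcn2-/- IMQ libraries.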

How the results depend on the processing

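The counts of called members follow, each with the count over all genes in brackets. Between Tcn2-/- IMQ and IMQ skin, with 0 (5), DESeq2 gave 15 (600), voom with sample quality weights 2 (28), no filter 2 (17), a fit of only the groups compared 2 (42), leaving out the 2 libraries of highest mitochondrial share 3 (51), and leaving out the 3 with the lowest first principal component 2 (24). Leaving out 1 library at a time gave 0 to 3 members. Between IMQ and control skin, with 2 (223), DESeq2 gave 9 (1126), voom 17 (3028), only the groups compared 4 (541), a muscle score as a covariate 0 (22), and leaving out the 2 libraries of highest mitochondrial share 1 (213). Leaving out the 3 libraries lowest on the first component gave 4 (631), leaving out Tcn2-/- IMQ replicates 1 and 2 gave 4 (736), and leaving out 1 library gave 0 to 4 members. Between Tcn2-/- IMQ and control skin, with 6 (238), DESeq2 gave 14 (1050), voom 22 (2948), sex as a covariate 0 (27), leaving out the 3 libraries lowest on the first component 11 (868), and leaving out 1 library 0 to 11 members. The cause was not tested. The exclusions by the first component and of Tcn2-/- IMQ replicates 1 and 2 were chosen after seeing the data. Counts over all genes moved in other settings too. Between Tcn2-/- IMQ and control skin a fit of only the groups compared gave 102 genes. Leaving out the 2 libraries of highest mitochondrial share gave 396, and leaving out Tcn2-/- IMQ replicates 1 and 2 gave 689. Between Tcn2-/- IMQ and IMQ skin the muscle score gave 0, and leaving out Tcn2-/- IMQ replicates 1 and 2 gave 1. Between IMQ and control skin sex as a covariate gave 143.

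With the replicate number as a block, 0 members (0 of all genes) were called between Tcn2-/- IMQ and IMQ skin, 0 (46) between IMQ and control skin and 1 (20) between Tcn2-/- IMQ and control skin. Deviations of libraries with the same number correlated at −0.12 to 0.419 over 4 numbers, −0.114 to 0.263 over 3 and −0.531 to 0.304 over 3 in these comparisons. So few values, without those of differently numbered libraries beside them, cannot show whether the numbers pair the libraries. Under the block the log2 change between Tcn2-/- IMQ and IMQ skin was −0.71 for Cxcl5, 0.34 for Cxcl14 and −0.32 for Cxcl13, and that of Cxcl14 between IMQ and control skin was −0.13, each with a turned sign.

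Of 2765 values of 37 members under other settings, 75 lost a call, 101 gained one and 31 turned their sign, while 88 further sign changes of uncalled values lay within 1 SE. Between Tcn2-/- IMQ and IMQ skin, Cxcl1 turned to 0.19 with voom and 1.55 with the muscle score and ranged over −1.63 to 0.13 when 1 library was left out, and Cxcl5 over −0.80 to 1.07. Ccl20 turned to 1.09 with voom and 2.55 with the muscle score. Without the 3 libraries lowest on the first component, and likewise without Tcn2-/- IMQ replicates 1 and 2, Ccl2 turned to 0.29 and Ccl8 to 0.59. Ccl27a turned to −0.014 and −0.013 and Ackr4 to −0.052 and −0.051 under these exclusions. Between IMQ and control skin, Cxcl1 turned to −0.20 with the muscle score and Ccl4 to −0.22 with voom. With sex as a covariate Ccr6 turned to 0.91, Ccr2 to 1.25, Ccl21a to 1.72 and Cxcl14 to −0.38, and Ccr2 ranged over −0.61 to 0.94 when 1 library was left out. Between Tcn2-/- IMQ and control skin, sex as a covariate turned Ccl3 to 1.65, Ccr1 to 1.77, Ccr10 to −0.53, Ccl21a to 1.95 and Cxcl14 to −0.94, and Ccl3 ranged over −1.13 to 0.38 when 1 library was left out. The cause of these turns was not tested. For those under the sex covariate, control replicate 1 was the only control with Y-linked counts, so sex and that library cannot be told apart there. Members below 1 CPM rest on few counts, which limits what can be said of Ccl1, Ccr6, Ccr8, Xcr1 and Cxcr5.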
